A study of Homo sapiens with 26 samples.

Results

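The interleukin 6 (IL6) and leukaemia inhibitory factor (LIF) cytokine family was described here through 4 ligand genes (LIF, IL6, IL11 and CLCF1) and 6 receptor genes (LIFR, IL6R, IL11RA, OSMR, IL6ST and CNTFR). The genes were found by matching Ensembl identifiers to symbols, and all 10 were among the 41078 genes of the deposited table. Polyadenylated RNA was sequenced once from each of 26 single cell-derived cell lines (SCDCLs), which are cultures grown up from 1 cell each after limiting dilution of a pancreatic ductal adenocarcinoma line. Of these, 12 were labelled BxPC3, the line chosen to stand for classical-like tumours, and 14 were labelled Panc1, chosen for basal-like tumours. All cultures shared high glucose DMEM with serum and antibiotics. Gemcitabine is given as treatment in all labels, but in the methods of the study the drug appears only in viability assays on separate wells.

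Every library came from a different clone, so no SCDCL had a replicate. In these bulk cultures, fewer cells making an mRNA and less mRNA per cell cannot be told apart.

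SMAD4 is the common mediator of TGF-beta signalling. BxPC3 is known for a homozygous deletion of this gene, whereas Panc-1 retains it, and its mRNA divided the libraries widely. In 12 libraries the SMAD4 level was between 0 and 0.0440 TPM (a level corrected for transcript length and scaled to the library, so that levels can be compared between genes). In the other 14 libraries it was between 28.1 and 52.2 TPM. The 2 groups are called SMAD4-low and SMAD4-expressing below, and neither group followed the labels. The SMAD4-low libraries comprised 5 labelled BxPC3 and 7 labelled Panc1, and the SMAD4-expressing libraries comprised 7 of each label. Thus in 14 of 26 libraries the SMAD4 level went against the label, and the lines are written as labels throughout. Because the groups were set by a value measured in the same libraries, their values are given as a description without a test.

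Totals ranged from 27035724 to 34945608 estimated counts per library. The epithelial genes EPCAM and CDH1 were at 239 to 424 and 90.8 to 198 TPM in the SMAD4-low libraries. In the SMAD4-expressing libraries they were at 7.49 to 25.5 and 0.338 to 7.74 TPM. The mesenchymal genes VIM and ZEB1 were ordered the other way, with VIM at 1.42 to 73.2 against 3047 to 4527 TPM and ZEB1 at 0.259 to 2.39 against 16.8 to 26.2 TPM. The other markers of both lists overlapped. The epithelial keratins KRT8 (298 to 781 against 704 to 4005 TPM) and KRT18 (393 to 757 against 733 to 2732 TPM) reached higher in the SMAD4-expressing libraries. KRT19 was at 1154 to 3176 against 558 to 2075 TPM and the mesenchymal CDH2 at 1.31 to 7.45 against 3.35 to 184 TPM. All values below that differ between the SMAD4 groups moved with these markers, and their part in the results cannot be told apart.

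Cytokines of this family signal through a shared receptor chain, gp130, which is encoded by IL6ST. IL6 and IL11 first bind a specific chain, IL6R or IL11RA, and then assemble with gp130, while LIF joins LIFR to gp130, and CLCF1 uses CNTFR together with LIFR and gp130. Receptor assembly activates Janus kinases and the transcription factor STAT3, and SOCS3 feeds back on gp130. In pancreatic cancer the family is best known for signals exchanged between tumour cells and fibroblasts, of which IL6 and LIF are the most studied.

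Positions are those of GENCODE on GRCh38, the genome build that the submitters' processing notes name. LIF lies at chr22:30240453-30246759, IL6 at chr7:22725884-22732002, IL11 at chr19:55364382-55370463 and CLCF1 at chr11:67364168-67374177. LIFR (chr5:38474668-38608354) and OSMR (chr5:38845858-38945596) are neighbours, with 237503 bases and no other protein-coding gene between them. CNTFR (chr9:34551432-34590140) and IL11RA (chr9:34652162-34661902) are separated by 62021 bases and 5 protein-coding genes. IL6ST lies at chr5:55935095-55995022 and IL6R at chr1:154405193-154469450.

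The 2 ligands with the widest separation in level between the SMAD4 groups, IL6 and IL11, are shown with the sequence before their RefSeq transcription start (GRCh38.p14). IL6 is given from 250 to 54 bases before the start (chr7:22726950-22727146, plus strand), stopping where exons of other annotated transcripts begin. IL11 is given from 250 bases to 1 base before the start (chr19:55370464-55370713, minus strand). Capitals mark matches on either strand to the letters searched for AP-1 (TGANTCA), NF-kB (GGGNNNNNCC), C/EBP (TTGCNNAA), STAT (TTCNNNGAA) and the SMAD box (CAGAC).
IL6: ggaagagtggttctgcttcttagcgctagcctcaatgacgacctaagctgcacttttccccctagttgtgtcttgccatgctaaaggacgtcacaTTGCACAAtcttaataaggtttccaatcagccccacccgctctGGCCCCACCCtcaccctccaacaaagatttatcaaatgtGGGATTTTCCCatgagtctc
IL11: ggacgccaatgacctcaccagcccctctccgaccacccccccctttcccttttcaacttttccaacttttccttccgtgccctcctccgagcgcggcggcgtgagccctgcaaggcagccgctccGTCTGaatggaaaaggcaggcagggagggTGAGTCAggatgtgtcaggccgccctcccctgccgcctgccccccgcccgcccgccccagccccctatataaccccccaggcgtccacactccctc

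In the IL6 window the C/EBP letters lay 155 to 148 bases before the start. The NF-kB letters occurred 3 times, of which 2 overlapped on opposite strands between 73 and 63 bases before the start. The IL11 window held the AP-1 letters once, 96 to 90 bases before the start, and a SMAD box 125 to 121 bases before it. A SMAD box also lay 11 to 7 bases before the IL6 start, in the bases not printed. Over the 250 bases before the start in 35116 RefSeq promoters, which for IL6 is more than is printed, 6.57% held the AP-1 letters, 54.4% the NF-kB letters, 9.05% the C/EBP letters, 6.57% the STAT letters and 38.0% the SMAD box. Of the 10 genes, 8 had a promoter entry, and LIF and CLCF1 are named only. A match of letters is a description and no evidence of binding. The motifs were chosen after the levels of the genes had been seen.

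The level of each member was then compared between the groups. LIFR, IL11RA and CNTFR, all receptor chains, had ranges that did not overlap, each higher in the SMAD4-expressing libraries. IL11 was 5.41-fold higher there by the medians, with ranges that met at their edges, and IL6 was found almost entirely in the SMAD4-low libraries. The medians of LIF, IL6R and IL6ST differed 1.08-, 1.09- and 1.09-fold between the groups.

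**Figure D1:**
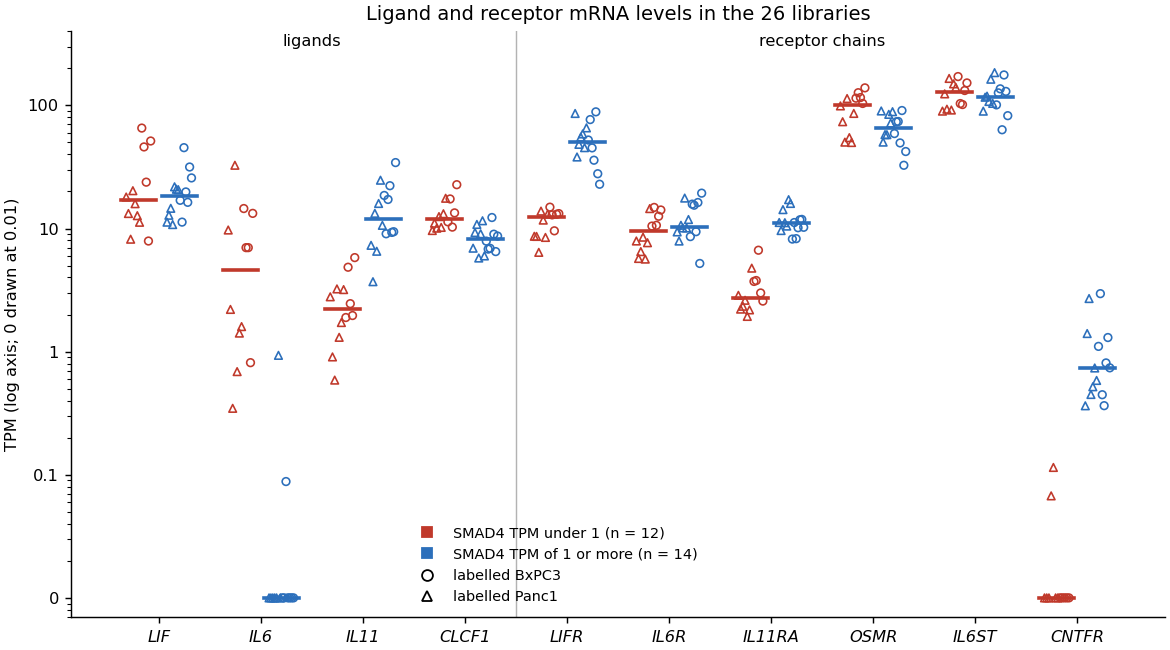
TPM of each ligand and receptor gene in every library on a log axis, with SMAD4-low libraries in red (n = 12) and SMAD4-expressing libraries in blue (n = 14), circles for libraries labelled BxPC3, triangles for libraries labelled Panc1, and bars at the group medians (0 is drawn at 0.01). LIFR, IL11RA and CNTFR are separated in every library, and IL6 is at 0 in 12 of the 14 SMAD4-expressing libraries.

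Ranges were apart for 3 of the 10 members. This count is to be read against 25% of 20251 genes with a mean of at least 0.1 TPM (5058 genes), 12.5% being higher in the SMAD4-low libraries and 12.5% higher in the SMAD4-expressing libraries. The members' share was therefore near the background. That background depended on the filter, at 30.3% of genes with a mean of at least 1 TPM and 17.3% with no filter. CNTFR, which is among the 3, had a mean of 0.0152 TPM in the SMAD4-low and 1.03 TPM in the SMAD4-expressing libraries. It passed the filter only through the latter. In the 12 libraries whose SMAD4 level went with their label (5 SMAD4-low labelled BxPC3 and 7 SMAD4-expressing labelled Panc1), the 3 receptor genes were again apart, OSMR was apart in the other direction, and 39.0% of genes were apart. In the 14 libraries whose SMAD4 level went against the label (7 and 7), the 3 receptor genes, IL11 and IL6 were apart, against 32.2% of genes. For IL6 this subset leaves out library 13, the highest SMAD4-expressing library at 0.933 TPM. The IL6 gap lay between 0.346 TPM (4.09 estimated counts, library 3) and 0.0881 TPM (1.02 estimated counts, library 18).

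Among the ligands, LIF was present in every library. In the SMAD4-low libraries the lowest level was 7.91 TPM, the median 16.96 TPM and the highest 65.4 TPM. In the SMAD4-expressing libraries the corresponding levels were 10.8, 18.4 and 45.3 TPM. The ranges overlapped almost completely, and the SMAD4-low libraries extended further both up (3 libraries above every SMAD4-expressing library) and down (2 libraries below).

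The 3 highest LIF levels, 65.4, 51.4 and 46.0 TPM, were all in SMAD4-low libraries labelled BxPC3 (numbers 16, 26 and 21). The lowest of all, 7.91 TPM, was in another library of the same kind (number 25). In the 7 SMAD4-low libraries labelled Panc1 LIF was between 8.18 and 20.3 TPM. The direction of the small difference between the group medians depended on the summary, at -0.11 on the log2(TPM + 1) scale by medians and 0.077 by means.

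IL6, the founding cytokine of the family, was detected in all 12 SMAD4-low libraries. Its lowest level there was 0.346 TPM (4.09 estimated counts), its median 4.60 TPM and its highest 32.6 TPM (383 estimated counts), a 94.2-fold range. In the SMAD4-expressing libraries it was listed at 0 in 12 of 14, at 0.0881 TPM in library 18 and at 0.933 TPM (10.1 estimated counts) in library 13. Of the 14, 13 were at or under 3 counts, which is what a count of 0 allows. The ranges overlapped only because library 13 exceeded 3 of the SMAD4-low libraries.

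Summed over the libraries of each group, IL6 was at 2.97 CPM (counts scaled to the library totals) in the SMAD4-low and at 0.0272 CPM in the SMAD4-expressing libraries, which is a 109-fold difference. Library 13 held 10.1 of the 11.1 counts behind the lower value, and without it 0.00267 CPM remained. Floors of this kind cover counting error only. IL6 overlaps STEAP1B on the opposite strand, which had medians of 0.366 and 7.85 TPM in the SMAD4-low and SMAD4-expressing libraries, and it is not stated whether strand was used in counting.

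Among the SMAD4-low libraries, IL6 was highest in library 4 (labelled Panc1, 32.6 TPM), followed by libraries 16 and 26 (labelled BxPC3, 14.5 and 13.3 TPM). Its lowest levels were in libraries 3 and 5, both labelled Panc1, at 0.346 and 0.688 TPM. The 5 libraries labelled BxPC3 spanned 0.814 to 14.5 TPM with a median of 6.99 TPM, and the 7 labelled Panc1 spanned 0.346 to 32.6 TPM with a median of 1.60 TPM, so that the labels overlapped.

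IL11, a cytokine induced by TGF-beta in many cell types, showed the opposite order. It was at 0.587, 2.21 and 5.80 TPM (lowest, median and highest) in the SMAD4-low libraries and at 3.70, 11.9 and 34.3 TPM in the SMAD4-expressing libraries. The log2 difference of the medians was -2.01 (SMAD4-low minus SMAD4-expressing, log2(TPM + 1)) against a pooled SD within groups of 0.71, and it was -1.23 at a pseudocount of 5. Of the SMAD4-low libraries, 10 of 12 were below every SMAD4-expressing library, and 13 of 14 SMAD4-expressing libraries were above every SMAD4-low library. The single low library among the latter was number 9 (labelled Panc1, 3.70 TPM).

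CLCF1, which acts on the CNTFR complex, was 1.44-fold higher in the SMAD4-low libraries by the medians. It was at 9.63, 11.9 and 22.7 TPM there and at 5.76, 8.29 and 12.3 TPM in the SMAD4-expressing libraries, and the ranges overlapped. CLCF1 shares its locus and strand with the annotated gene ENSG00000256514, which had medians of 9.68 and 21.3 TPM in the 2 groups in the reverse order. Reads can be divided between the 2 genes in the quantification, so the CLCF1 level is uncertain to that degree.

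Of the 6 receptor chains, 3 separated the groups completely, as did 25% of all genes with a mean of at least 0.1 TPM. The share among the 6 was not tested. LIFR, the chain that LIF shares with gp130, was at 6.40, 12.3 and 14.9 TPM in the SMAD4-low libraries and at 22.9, 50.3 and 88.6 TPM in the SMAD4-expressing libraries. Its medians differed 4.09-fold, and the log2 difference was -1.95 against a pooled SD of 0.48. The lowest SMAD4-expressing library (number 23) lay above the highest SMAD4-low library (number 16). Within the group the libraries labelled BxPC3 spanned 22.9 to 88.6 TPM and those labelled Panc1 38.08 to 86.0 TPM, so both labels held high and low clones.

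IL11RA, which binds IL11 before gp130 joins, was at 1.93, 2.74 and 6.66 TPM against 8.21, 11.2 and 17.1 TPM. The medians differed 4.08-fold, with a log2 difference of -1.70 against a pooled SD of 0.35, and of -1.06 at a pseudocount of 5. IL11 and its specific receptor were therefore both higher by the medians in the SMAD4-expressing libraries.

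CNTFR, a chain anchored to the membrane by a lipid and used by CNTF and CLCF1, was low in all libraries. It was listed at 0 in 10 of the 12 SMAD4-low libraries and reached 0.115 TPM (4.26 estimated counts) in library 5. In the SMAD4-expressing libraries it was at 0.363, 0.737 and 2.96 TPM, and the ranges did not overlap. Summed counts gave 1.28 against 0.0182 CPM, a 70.4-fold difference that rests on 6.62 counts in the lower group, and on 2.36 counts (0.00707 CPM) without library 5.

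OSMR, the chain that pairs with gp130 for oncostatin M, was 1.55-fold higher in the SMAD4-low libraries by the medians. The levels were 49.9, 101 and 139 TPM in the SMAD4-low and 32.6, 65.4 and 90.8 TPM in the SMAD4-expressing libraries. Of the former, 7 of 12 were above every SMAD4-expressing library. All 5 SMAD4-low libraries labelled BxPC3 were among these, at 104 to 139 TPM, while the 7 labelled Panc1 spanned 49.9 to 114 TPM. RICTOR overlaps OSMR on the opposite strand and had medians of 27.9 and 10.5 TPM.

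IL6ST and IL6R differed little. IL6ST was at 89.8, 128 and 171 TPM in the SMAD4-low and at 63.4, 118 and 184 TPM in the SMAD4-expressing libraries. IL6R was at 5.64, 9.48 and 14.8 TPM and at 5.20, 10.4 and 19.4 TPM. Both pairs of ranges overlapped over most of their width.

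In both groups IL6ST was the most abundant member by the median and OSMR followed. In the SMAD4-low libraries the order then ran LIF, LIFR, CLCF1, IL6R, IL6, IL11RA, IL11 and CNTFR. In the SMAD4-expressing libraries it ran LIFR, LIF, IL11, IL11RA, IL6R, CLCF1, CNTFR and IL6. Neighbours in these orders had overlapping ranges, except IL11 above CNTFR in the SMAD4-low libraries and CLCF1 above CNTFR in the SMAD4-expressing libraries. Within single libraries, OSMR exceeded LIF in 12 of 12 SMAD4-low libraries, and LIFR exceeded LIF in 11 of 14 SMAD4-expressing libraries. Other steps did not hold library by library. In the SMAD4-low libraries LIFR exceeded CLCF1 in 3 of 12 and IL6 exceeded IL11RA in 6 of 12, and in the SMAD4-expressing libraries IL11 exceeded IL11RA in 6 of 14.

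Because LIFR and OSMR are alternative partners of gp130, their ratio within a library was also computed. LIFR over OSMR had a median of 0.124 (0.0828 to 0.214) in the SMAD4-low libraries and of 0.795 (0.542 to 1.04) in the SMAD4-expressing libraries, without overlap. LIFR over IL6ST was at 0.0566 to 0.128 and at 0.214 to 0.958, also apart. IL11RA over IL6ST was at 0.0146 to 0.0656 and at 0.0607 to 0.165, which overlapped at the edge, and IL6R over IL6ST overlapped throughout.

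**Figure D2:**
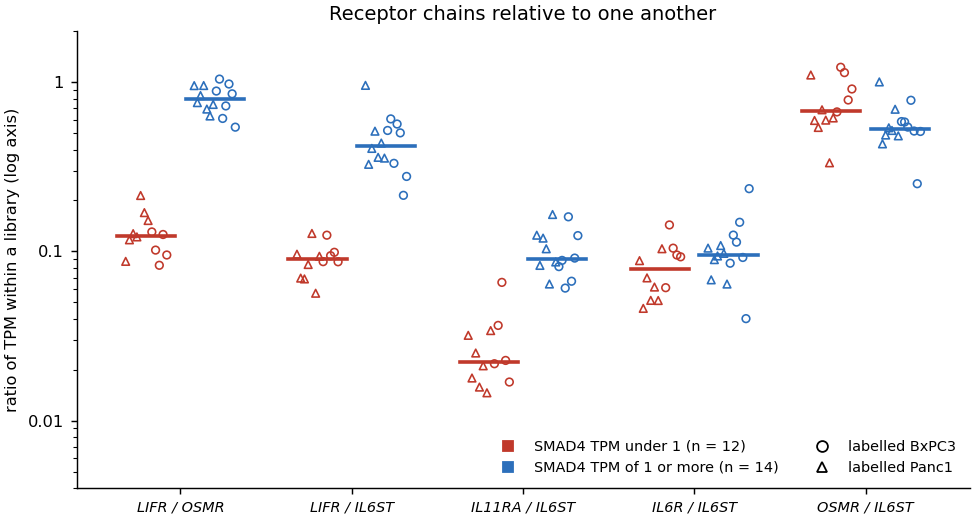
Ratio of the TPM of pairs of receptor genes within each library on a log axis, with SMAD4-low libraries in red (n = 12), SMAD4-expressing libraries in blue (n = 14), circles labelled BxPC3, triangles labelled Panc1 and bars at the medians. LIFR over OSMR runs from 0.0828 to 0.214 in the SMAD4-low and from 0.542 to 1.04 in the SMAD4-expressing libraries.

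Ligand ratios moved accordingly. IL11 over LIF had a median of 0.109 (0.0289 to 0.284) in the SMAD4-low libraries and of 0.690 (0.289 to 1.33) in the SMAD4-expressing libraries. IL6 over LIF reached 1.61 in library 4, the 1 library in which the IL6 level exceeded the LIF level.

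Members also varied among clones of the same group, which was described by the SD of log2(TPM + 1) over its libraries and its place among genes with a mean of at least 1 TPM. In the 12 SMAD4-low libraries the SD of IL6 was 1.51 ± 0.23 (jackknife SE), larger than that of 99.5% of 14375 genes. The SD of LIF was 0.97 ± 0.17, at the 97.2 percentile, and that of IL11 was 0.62 ± 0.12, at the 90.7 percentile. OSMR, IL6R and IL11RA were at the 85.4, 80.1 and 72.5 percentiles, and CLCF1, LIFR and IL6ST at the 65.1, 61.3 and 60.7 percentiles. CNTFR, under 1 TPM, had an SD of 0.051. The median SD of all the genes ranked was 0.30.

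In the 14 SMAD4-expressing libraries IL11 had the widest spread of the family at a pseudocount of 1, with an SD of 0.79 ± 0.15 at the 94.3 percentile of 13826 genes. At a pseudocount of 0.1 the SDs of IL6 (0.914) and CNTFR (0.887), both low in these libraries, exceeded that of IL11 (0.852). At a pseudocount of 1 LIF followed at 0.57 ± 0.12 (87.7 percentile) and LIFR at 0.56 ± 0.10 (87.3 percentile). IL11RA, in contrast, was near the middle at 0.29 ± 0.057 (49.1 percentile). CNTFR, IL6R, OSMR, IL6ST and CLCF1 were at the 83.1, 81.6, 77.4, 75.4 and 56.1 percentiles, and IL6, under 1 TPM, had an SD of 0.254.

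The error of quantification was smaller than these spreads for members with a mean of at least 1 TPM in a group. For CNTFR in the SMAD4-low libraries, the largest error in a library (SD of 0.053) was not smaller than the SD among clones (0.051). Across the 30 deposited quantifications of resampled reads in a library, the SD of log2(TPM + 1) in the median library was 0.039 for LIF and 0.161 for IL6 in the SMAD4-low libraries. The SD among clones was 25.05 and 9.41 times as large. For IL11RA in the SMAD4-low libraries it was 3.30 times as large, the lowest of the members with a mean of at least 1 TPM in a group. Differences between clones include every difference between single cultures and libraries, since none was repeated.

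**Figure D3:**
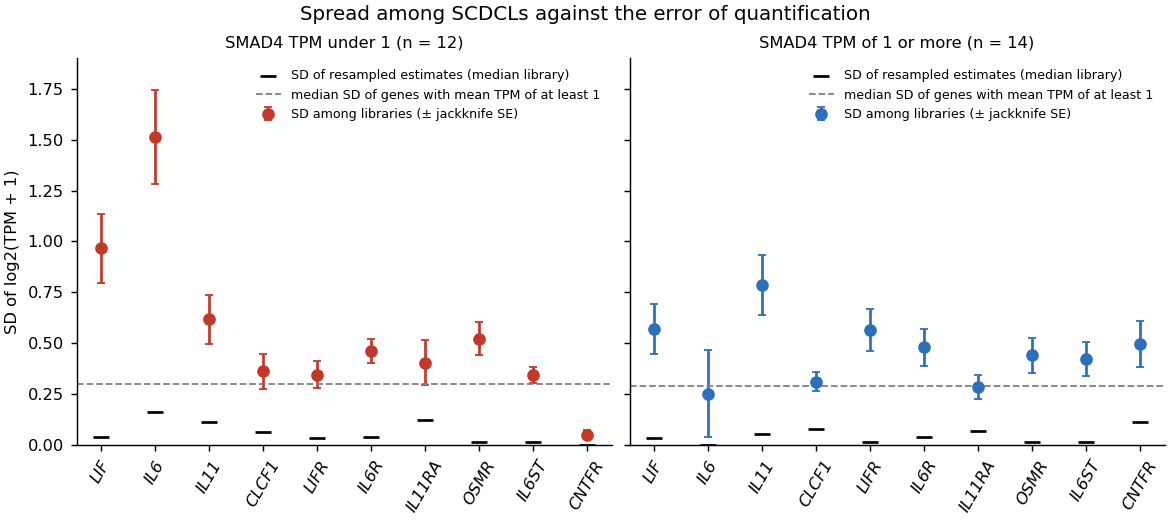
SD of log2(TPM + 1) of each member among the SMAD4-low libraries (left, n = 12) and the SMAD4-expressing libraries (right, n = 14) with its jackknife SE, the SD of resampled estimates in the median library (black dashes) and the median SD of all genes with a mean of at least 1 TPM (dashed line). IL6 (1.51) and LIF (0.97) stand out on the left and IL11 (0.79) on the right.

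Whether ligands varied together was tested within each group, over 9 pairs of ligands with a mean of at least 1 TPM, by permuting libraries (2-sided permutation test, Benjamini-Hochberg adjustment over the 9 pairs). In the 12 SMAD4-low libraries LIF and IL6 were correlated, with Pearson's r = 0.739 (p = 0.0066, adjusted p = 0.0297) and Spearman's rho = 0.797 (p = 0.0028, adjusted p = 0.0254). Without the 2 libraries farthest from the median of LIF (numbers 16 and 26), r over the remaining 10 was 0.665 (permutation p = 0.0349, adjusted p = 0.0785), so that the adjusted p missed the threshold with fewer libraries. Within the 7 of these libraries labelled Panc1, r was 0.794 (exact permutation p = 0.0300, adjusted p = 0.318 over 12 such relations) and rho was 0.750 (exact permutation p = 0.0663, adjusted p = 0.352). No correlation was computed over the 5 labelled BxPC3.

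IL11 and CLCF1 were the other pair past the threshold in the SMAD4-low libraries, with r = 0.750 (permutation p = 0.0047, adjusted p = 0.0297). Spearman's rho was 0.622 (permutation p = 0.0350, adjusted p = 0.0789), and over the 10 libraries other than 26 and 3 r was 0.579 (permutation p = 0.0805, adjusted p = 0.144). Both stayed positive and missed the threshold. Within the 7 libraries labelled Panc1 r was 0.530 (exact permutation p = 0.214, adjusted p = 0.452).

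In the 14 SMAD4-expressing libraries LIF and IL11 had r = 0.559 (permutation p = 0.0377, adjusted p = 0.0692) and rho = 0.692 (permutation p = 0.0079, adjusted p = 0.0356). Without libraries 18 and 22, r was 0.809 (permutation adjusted p = 0.0176). Within labels r was 0.303 in the 7 libraries labelled BxPC3 and 0.759 in the 7 labelled Panc1 (exact permutation p = 0.506 and 0.0530). The other 6 pairs had r between 0.022 and 0.641 and adjusted p between 0.0692 and 0.941 by the same permutation test.

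**Figure D4:**
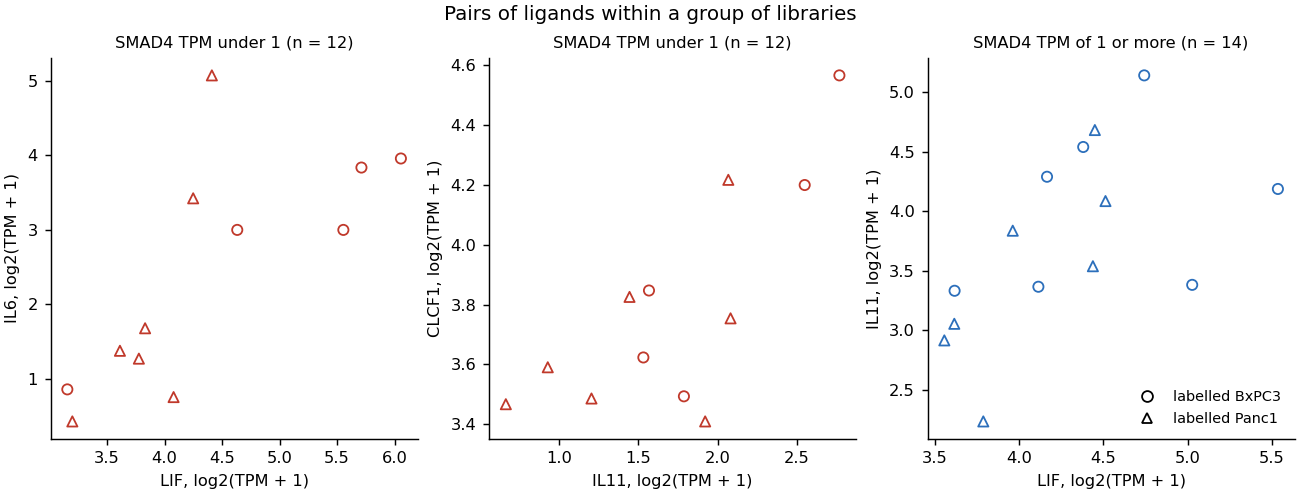
Pairs of ligands on the log2(TPM + 1) scale, 1 point per library, circles labelled BxPC3 and triangles labelled Panc1: LIF and IL6 in the SMAD4-low libraries (r = 0.739), IL11 and CLCF1 in the same libraries (r = 0.750), and LIF and IL11 in the SMAD4-expressing libraries (r = 0.559). The 2 highest LIF levels in the left panel are libraries 16 and 26.

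The genes most like each ligand were ranked by Pearson's r over the libraries of a group, as a description with no test, among genes with a mean of at least 1 TPM and an SD of at least 0.2. Over the 12 SMAD4-low libraries the 5 most like IL6 of 11036 genes were CXCL5 (r = 0.982), TMEM171 (0.974), CSF2 (0.947), CXCL2 (0.944) and PLD6 (0.942). CXCL5 and CXCL2 encode chemokines that attract neutrophils, and CSF2 encodes the growth factor GM-CSF. CXCL5 ranged from 3.79 to 260 TPM and CXCL2 from 2.33 to 143 TPM over these libraries. With any 1 library left out, r of CXCL5 was at least 0.974.

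For LIF the most like genes in the same libraries were AVPI1 (r = 0.934), NR4A2 (0.879), SOCS3 (0.873), BMP2 (0.871) and TGFBI (0.867). SOCS3, the feedback inhibitor of gp130 signalling, ranged from 8.51 to 35.4 TPM, and its r was at least 0.840 with any 1 library left out. Over the 14 SMAD4-expressing libraries LIF was most like CASTOR1 (0.912), HBEGF (0.901), SLC20A1 (0.895), PDE10A (0.842) and BORCS8-MEF2B (0.833) of 10181 genes. HBEGF encodes a ligand of the EGF receptor and SLC20A1 a phosphate transporter. None of the 5 was among the genes named for LIF in the SMAD4-low libraries.

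IL11 was most like COL17A1 (r = 0.944), MFSD14A, EXTL2 and SLC35G2 in the SMAD4-low libraries and most like MAP4K5 (0.888), RFX3, RASGRF2, RSPRY1 and DBNDD1 in the SMAD4-expressing libraries. COL17A1 encodes a collagen of hemidesmosomes and ranged from 46.3 to 480 TPM. For CLCF1 the leading genes were ECM1 (0.880), SYPL1, DIPK1A, S100A2 and GALNT13, and FERMT3 (0.851), ENSG00000290735, STAP2, IGSF9B and C11orf68. Leaving out 1 SMAD4-low library lowered r to as little as 0.795 for ECM1, 0.745 for SYPL1 and 0.759 for DIPK1A. For S100A2 and GALNT13 r stayed at or above 0.829 and 0.8195. Without library 26 the SD of CLCF1 in the SMAD4-low libraries fell from 0.36 to 0.28. The libraries of both groups share depth and culture conditions, and with so many genes ranked the leading values are high by selection.

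The other genes of the pathway were taken from 6 lists of 87 genes, 78 of which had a mean of at least 0.1 TPM. Ranges were apart for 31 of the 78 (39.7%, against 25% of all genes), 22 being higher in the SMAD4-low and 9 in the SMAD4-expressing libraries. With a mean of at least 1 TPM required, 31 of 76 were apart, against 30.3% of 14763 genes. The lists were chosen with earlier results of these data known. In the libraries whose SMAD4 level went with their label 45 of the 78 were apart, against 39.0% of all genes, and in those where it went against the label 36, against 32.2%. The median log2 difference over the 78 genes was 0.17 and that over all genes was 0.00.

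Of the 7 other ligands, 4 passed the filter. EBI3, the subunit shared by IL27 and IL35, was higher in every SMAD4-expressing library (2.69, 6.02 and 26.6 TPM) than in the SMAD4-low libraries (0.0376, 0.302 and 0.846 TPM). OSM, the ligand of OSMR and a close neighbour of LIF on chromosome 22, was at 0.240 TPM or less in all libraries and reached at most 2.01 estimated counts. CTF1 (medians of 2.42 and 3.20 TPM) and CNTF (1.07 and 1.30 TPM) overlapped between the groups.

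Among 14 signal transducers, 4 were higher in the SMAD4-expressing and 1 in the SMAD4-low libraries. Ranges were thus apart for 35.7% of this list, against 25% of all genes. STAT3 itself was at 71.6, 89.1 and 108 TPM in the SMAD4-low and at 133, 204 and 294 TPM in the SMAD4-expressing libraries, without overlap. JAK1, the main kinase at gp130, had medians of 42.7 and 71.2 TPM and JAK2 medians of 12.4 and 4.19 TPM, both with overlapping ranges.

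Among 10 inhibitors, 4 were higher in the SMAD4-low and 2 in the SMAD4-expressing libraries. In this list 6 of 10 genes had ranges apart, against 25% of all genes, and the share was not tested. SOCS3 had medians of 17.6 and 26.7 TPM with overlapping ranges. SOCS2 was at 4.53 to 11.4 TPM in the SMAD4-low and at 34.0 to 73.1 TPM in the SMAD4-expressing libraries. PTPRE, a receptor-type phosphatase, was at 12.4 to 35.2 TPM and at 0 to 3.05 TPM.

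Of 32 listed STAT3 target genes 26 passed the filter, and 9 were higher in every SMAD4-low library while 0 were higher in every SMAD4-expressing library. Ranges were thus apart for 34.6% of the 26, against 25% of all genes, 12.5% being apart in this direction. Of all genes with a mean of at least 1 TPM, 30.3% were apart. The median log2 difference over the 26 was 1.27. Examples of the 9, chosen after their values were seen, are CEBPD (medians of 31.4 and 3.39 TPM), JUNB (187 and 35.3 TPM), MYC (164 and 54.4 TPM) and LRG1 (10.5 and 0.119 TPM). By the medians, 18 of the 26 were higher in the SMAD4-low and 8 in the SMAD4-expressing libraries. Among the 8, with ranges that overlapped and also chosen after their values were seen, were MUC1 (3.88 and 40.05 TPM), PIM1 (11.975 and 33.6 TPM), BCL6 (4.67 and 8.75 TPM) and BCL2L1 (121 and 189 TPM).

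Among 20 regulators of ligand transcription and mRNA decay, 7 were higher in the SMAD4-low and 2 in the SMAD4-expressing libraries. The share of this list with ranges apart was 45.0%, against 25% of all genes. IL1A and IL1B, cytokines that induce IL6 and LIF through NF-kB, had medians of 195 and 118 TPM in the SMAD4-low libraries. In the SMAD4-expressing libraries IL1A reached at most 0.223 TPM and IL1B at most 0.680 TPM. The medians in the SMAD4-low and SMAD4-expressing libraries were 4.60 and 0 TPM for IL6 and 16.96 and 18.4 TPM for LIF. A link between IL1 and these ligands was not tested. ZFP36, which promotes the decay of cytokine mRNAs with AU-rich elements, was at 37.0 to 85.8 TPM in the SMAD4-low and at 200 to 473 TPM in the SMAD4-expressing libraries.

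**Figure D5:**
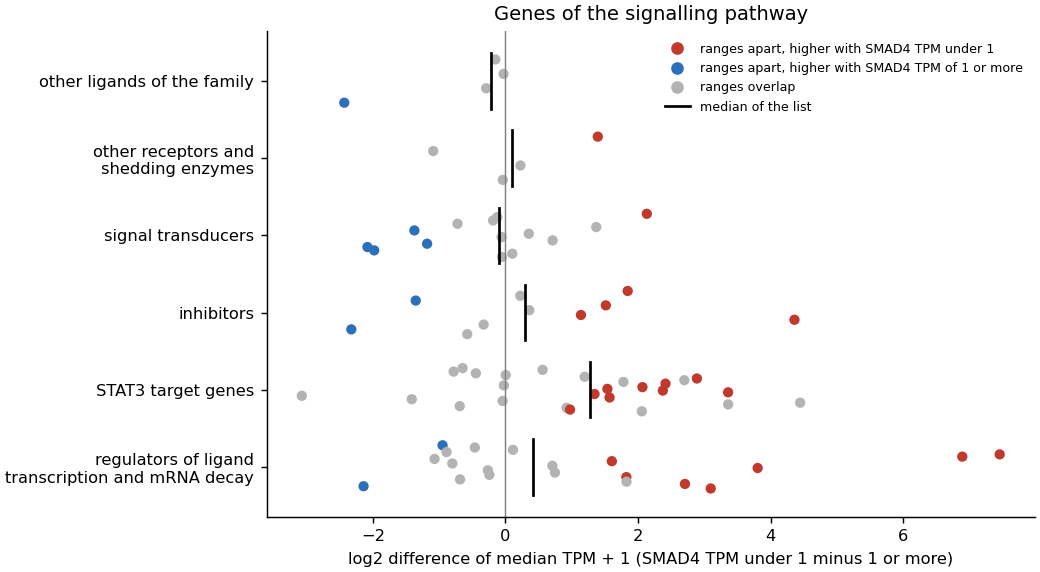
Log2 difference of the median TPM + 1 (SMAD4-low minus SMAD4-expressing libraries) for the 78 pathway genes with a mean of at least 0.1 TPM, grouped by list, in red or blue where the ranges were apart (higher in SMAD4-low or in SMAD4-expressing libraries) and in grey where they overlapped, with black bars at the list medians. The STAT3 target genes have the highest median, 1.27, and the 2 points farthest right are IL1A and IL1B.

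Markers of other cells that secrete or sense these cytokines were checked beside these values. The fibroblast markers DCN, LUM, COL1A2 and FAP reached at most 1.07, 0.243, 0.865 and 1.26 TPM in any library. PDGFRA was at 4.20 to 21.9 TPM in the SMAD4-low libraries and at most 0.713 TPM in the others, and the summed level of the 5 fibroblast markers was 4.85 to 24.0 TPM and 0.231 to 1.12 TPM. The leukocyte markers PTPRC and CD3E reached at most 0.535 and 0.393 TPM and MS4A1 was at 0, while CD14 reached 29.1 TPM and CD68 141 TPM. The 5 leukocyte markers summed to 5.37 to 49.9 TPM and 44.5 to 141 TPM. Of the endothelial markers VWF stayed at or below 0.473 TPM. CDH5 was at 1.04 to 13.6 TPM in the SMAD4-low libraries and at most 0.0427 TPM in the others. PECAM1 was at 0.8975 to 6.07 TPM in the SMAD4-low and at 0.321 to 5.38 TPM in the SMAD4-expressing libraries. The 3 endothelial markers summed to 3.16 to 16.97 TPM and 0.321 to 5.39 TPM.

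Lastly, the labels themselves were compared, 12 libraries labelled BxPC3 against 14 labelled Panc1, in a fit across all genes. LIF had the largest difference of the members. It was at 7.91, 24.8 and 65.4 TPM in the libraries labelled BxPC3 and at 8.18, 13.9 and 21.8 TPM in those labelled Panc1. The log2 fold change was -0.999 ± 0.27 (SE, Panc1 minus BxPC3), with an unadjusted p of 0.0012 and an adjusted p of 1 (edgeR's quasi-likelihood test with Benjamini-Hochberg adjustment over 16008 genes). Of the 12 libraries labelled BxPC3, 7 were above every library labelled Panc1, and 5 were within or below their range.

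No member and no other gene passed the threshold in this test (0 of 16008 genes, 0.0%), and 367 genes had an unadjusted p under 0.05. By DESeq2 2 genes were called and by limma 0, where 676 and 346 genes had an unadjusted p under 0.05. The remaining 8 members tested had log2 fold changes between -0.74 (IL11) and 0.035 (IL11RA), each with an adjusted p of 1 in edgeR. IL6 did not pass edgeR's filter on low counts, and without that filter its log2 fold change was -0.0080 (edgeR, adjusted p = 1.00).

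With the SMAD4 group in the model, the LIF difference between labels was -0.98 ± 0.27 (edgeR, adjusted p = 0.546). Within the SMAD4-low libraries it was -1.45 ± 0.41 and within the SMAD4-expressing libraries -0.58 ± 0.27 (edgeR, adjusted p = 0.404 and 0.982). The interaction of label and SMAD4 group was 0.88 ± 0.51 for LIF (edgeR, adjusted p = 0.678). It was 0.91 ± 0.32 for OSMR and 0.83 ± 0.28 for IL11RA (edgeR, unadjusted p = 0.0096 and 0.0066, adjusted p = 0.604 and 0.602). It was past the threshold for no gene (1273 of 16008 genes at an unadjusted p under 0.05). A missed threshold in this design, with SMAD4 levels against the label in 14 libraries, does not show that the lines express LIF alike.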

How the data were processed

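The authors mapped paired reads of strand-specific libraries to Ensembl GRCh38.103 transcripts with kallisto 0.46.1 and deposited 1 gene table in the form tximport gives. The deposited table holds TPM, estimated counts (expected counts, made from TPM, transcript length and library total), 30 resampled estimates per library and lengths. The deposited TPM are relative to each library, and the 30 resamplings served as quantification error. The other 26 per-sample columns, lengths, were not used. Whether strand was used in the quantification is not given in the sources used here.

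The 10 members and all gene lists were chosen with earlier results of these data known. Libraries were grouped by label and by a SMAD4 level under 1 TPM or not. SMAD4 groups were described by lowest, median and highest TPM, with a pseudocount of 1 before log2. Labels were compared with edgeR 4.0.16 on rounded estimated counts (TMM, filterByExpr, adjusted p under 0.05 and absolute log2 fold change over 1), with DESeq2 1.42.0 and limma 3.58.1 as alternatives (R 4.3.3). Correlations used 100000 permutations (Python 3.11.15, numpy 2.4.6, scipy 1.17.1). All 10 members were described in each result, singly or by a range. Pathway genes named were SOCS3, STAT3, JAK1, JAK2, OSM, CTF1, CNTF and, on each side, the 3 with the largest difference among those with ranges apart and a higher median of at least 5 TPM, and the 5 genes most like each ligand. A gene that these rules name but the text does not is not reported here, and the STAT3 target genes given as examples were chosen after their values were seen. The labels give no response to gemcitabine, so resistant and sensitive SCDCLs were not compared. The closest pair of libraries differed by a chi-square of 41.4 per gene, so no library was counted as a repeat. The scripts were tested on simulated data. P-values measure the spread between single cultures, which may be partly technical. Totals of 27035724 to 34945608 estimated counts limit the precision of genes with few counts, and assignment among similar transcripts adds to counting error.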

Additional observations from a re-analysis of the deposited data

How the results depend on the processing

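Members with ranges apart between the SMAD4 groups numbered 3 under TPM and both CPM scalings. They numbered 4 and 5 in the libraries whose SMAD4 level went with and against the label, subsets chosen after seeing the data, where 39.0% and 32.2% of genes were apart. The label test gave 0 genes under every edgeR and limma setting and 2 with DESeq2. Adjusted p passed 0.05 for LIF and IL6 (SMAD4-low) except without the 2 farthest libraries (r = 0.665), and for IL11 and CLCF1 (SMAD4-low) except by rho (0.622) and without the 2 farthest (r = 0.579). It also passed for IL6 and IL11 (SMAD4-low) at a pseudocount of 0.1 (r = 0.683), for LIF and IL11 (SMAD4-expressing) by rho (0.692) and without the 2 farthest (r = 0.809), and for IL11 and CLCF1 (SMAD4-expressing) without the 2 farthest (r = 0.725). Signs turned for LIF between SMAD4 groups with means (0.077), and for LIF and CLCF1 (SMAD4-expressing) with TMM (r = -0.0012). Label differences, log2, turned for CLCF1 (0.043), LIFR (0.17) and OSMR (0.24) within SMAD4-expressing libraries, for IL11RA with limma (-0.14), the SMAD4 covariate (-0.047) and within SMAD4-low libraries (-0.48), for IL6ST within SMAD4-low libraries (-0.078) and for CNTFR with the covariate (0.053). None of these label differences passed the threshold in any setting, and the cause was not tested. Of the values for single members, 150 kept their direction and their side of the threshold or moved by less than the spread between libraries (for an SD, its SE). These include changes in size, such as the IL6 difference between SMAD4 groups (2.34, and 1.37 with TMM). Another 33 moved further, 27 of them SDs under another pseudocount, with TMM or as a median absolute deviation. The other 6 were log2 differences between SMAD4 groups, for IL6 and CNTFR at pseudocounts of 0.1 (5.34 and -3.07) and 5 (0.89 and -0.20) and for IL11 and IL11RA at 5 (-1.23 and -1.06). No paired analysis was possible because every library is a different SCDCL with its own number. The depth limits IL6 in the SMAD4-expressing and CNTFR in the SMAD4-low libraries, where 13 of 14 and 11 of 12 libraries were at or under 3 counts.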
